A study of Mus musculus with 6 samples.

Results

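The immediate early transcription factors described here are 10 genes, Fos, Fosl2, Jun, Junb, Jund, Egr1, Nr4a1, Ier2, Klf4 and Klf6. They were chosen by gene symbol, and all 10 were among the 14008 named entries of the deposited table. RNA came from retinal pigment epithelium (RPE), the pigmented layer behind the photoreceptors, of C57BL/6J males 8 to 10 weeks old, an inbred strain. The groups were circadian time 1 (CT1), just after subjective dawn, with 3 libraries, and circadian time 23 (CT23), 2 h earlier in the cycle, with 3 libraries. Every library pooled 2 RPE samples, so a value is an average over a pool. The labels list no genotype, drug or light pulse that separates the times, and the lighting before collection was not given in the sources used here. No source used here says that libraries came from separate animals, so p-values measure only the spread between these libraries.

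Immediate early genes are transcribed within minutes of a stimulus without new protein synthesis. Kinase cascades act on factors already bound at their promoters, such as CREB and the serum response factor, and the products then control later genes. Fos and Jun family proteins pair through leucine zippers to form AP-1, Egr1 and the KLF proteins bind GC-rich DNA through zinc fingers, and Nr4a1 encodes a nuclear receptor that acts without a known hormone. In the retina and in the brain's clock, Fos and Egr1 respond to light and to time of day. The same genes also respond to tissue handling.

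The start regions of 5 members are shown as examples. Fos and Nr4a1 averaged lower at CT1, and Jun, Klf6 and Klf4 averaged higher. The start regions of Fosl2, Junb and Jund were searched in the same way and are not shown. Each run is the 250 bases before the annotated start on the gene's own strand, from RefSeq on GRCm38.p6. Capitals mark matches on either strand to the cAMP response half-site TGACG, the Jun promoter element TGACATCA, the E-box CACGTG and the EGR site GCGNGGGCG. Fos lies at chr12:85473640-85473889 on the plus strand and Nr4a1 at chr15:101266596-101266845 on the plus strand. Jun lies at chr4:95052223-95052472 on the minus strand, Klf6 at chr13:5861239-5861488 on the plus strand and Klf4 at chr4:55532476-55532725 on the minus strand.
Fos: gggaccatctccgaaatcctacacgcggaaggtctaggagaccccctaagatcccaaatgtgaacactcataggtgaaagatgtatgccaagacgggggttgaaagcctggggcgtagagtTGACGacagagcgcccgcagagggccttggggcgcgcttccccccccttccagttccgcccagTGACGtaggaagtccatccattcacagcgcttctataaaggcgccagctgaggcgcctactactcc
Nr4a1: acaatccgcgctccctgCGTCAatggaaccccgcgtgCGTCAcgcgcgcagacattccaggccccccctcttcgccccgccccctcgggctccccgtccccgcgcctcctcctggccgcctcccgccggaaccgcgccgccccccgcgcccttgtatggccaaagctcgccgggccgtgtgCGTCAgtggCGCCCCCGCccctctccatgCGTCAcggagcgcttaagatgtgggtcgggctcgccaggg
Jun: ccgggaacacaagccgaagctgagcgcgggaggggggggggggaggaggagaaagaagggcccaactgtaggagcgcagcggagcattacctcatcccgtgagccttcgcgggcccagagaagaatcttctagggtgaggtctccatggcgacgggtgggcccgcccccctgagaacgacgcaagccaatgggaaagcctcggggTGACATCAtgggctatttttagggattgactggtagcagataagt
Klf6: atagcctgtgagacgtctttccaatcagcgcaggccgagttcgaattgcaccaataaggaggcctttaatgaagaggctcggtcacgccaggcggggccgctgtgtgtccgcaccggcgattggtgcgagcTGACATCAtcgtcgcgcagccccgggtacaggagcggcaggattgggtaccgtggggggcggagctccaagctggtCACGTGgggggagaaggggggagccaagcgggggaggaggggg
Klf4: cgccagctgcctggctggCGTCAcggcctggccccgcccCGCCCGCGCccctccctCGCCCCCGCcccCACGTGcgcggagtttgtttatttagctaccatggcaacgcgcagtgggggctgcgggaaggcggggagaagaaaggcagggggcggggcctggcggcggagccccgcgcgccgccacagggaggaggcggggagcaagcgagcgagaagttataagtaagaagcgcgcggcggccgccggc

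Nr4a1 had 4 half-sites in this window, starting 233, 213, 69 and 40 bases before its start, and 0.137% of 32851 windows in the RefSeq table held 4 or more. Fos had 2 half-sites, starting 129 and 66 bases before its start, and 3.9% of windows held 2 or more. Junb and Klf4 had 1 half-site each, and 17.8% of windows had at least 1. Jun and Klf6 both held TGACATCA, which 2.93% of windows held, at 45 and 119 bases before the start. The E-box, the element bound by the clock activators, was found in Klf4 and Klf6 and in 6.02% of windows. An EGR site was found in Nr4a1, Klf4 and Fosl2 and in 4.7% of windows. The window of none of the 8 members in the table held the full cAMP response element TGACGTCA (1.55% of windows) or the AP-1 site TGANTCA (6.75%). None held the NR4A site AAAGGTCA (1.34%) or a CArG box (1.47%), the site of the serum response factor. The CArG box was searched only as CCWWWWWWGG, with W for A or T. Looser matches and bases farther upstream were not searched. The full element contains the half-site on both strands. Matches describe letters, not bound sites. The Nr4a1 window falls within the Nr4a1 gene of the GENCODE M21 annotation, which starts farther upstream, and overlaps none of its exons, and the Jun window falls within the antisense gene Junos. Egr1 and Ier2 had no entry.

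Expression was given as CPM, in which a gene's reads are scaled to library depth. The kit reads transcripts at their 3′ end. Library totals were 12612330 to 13651486 reads, so 1 read was worth 0.0733 to 0.0793 CPM. The entries of the deposited table held only part of these totals, 12.7% to 15.0% at CT1. At CT23 they held 32.3%, 30.6% and 14.3% in replicates 1, 2 and 3. CT23 replicates 1 and 2 stood apart from the other libraries in crystallin genes, which encode lens proteins. These took 19.8% and 18.0% of their total reads, against 2.34% in CT23 replicate 3 and 0.233% to 1.93% at CT1. All 12 RPE markers were found, and their summed level was 3305 to 3955 CPM at CT1 and 2481 to 3026 CPM at CT23. Most of this sum was Dct, at 1955, 2215 and 2007 CPM in CT1 replicates 1, 2 and 3. Dct was at 1666, 1585 and 1427 CPM in CT23 replicates 1, 2 and 3. The times did not overlap for only 3 of the 12 markers, and 1, Otx2, averaged lower at CT1 (log2 fold -0.14). In bulk RNA, fewer cells of a type and less RNA per cell cannot be told apart.

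None of the 10 members passed limma's test of CT1 against CT23 at an adjusted p of 0.05, as was the case for 0 of 11342 genes tested (0%). Their median log2 fold, CT1 minus CT23 on the log2(CPM + 1) scale, was 0.22, beside -0.014 over all genes tested. The members' median was 0.033 without CT23 replicate 1, -0.085 without CT23 replicates 1 and 2, and 0.040 with totals counted without crystallin reads, where the median over all genes was -0.17. Members differed in direction, with 6 averaging higher at CT1, beside 47.8% of all genes, and 4 lower. Without adjustment 3 members had a limma p under 0.05, beside 21.8% of all genes. They were Klf6 and Jun, higher at CT1 as were 9.39% of all genes, and Nr4a1, lower as were 12.4%. The libraries of the times did not overlap for 2 members, beside 27.6% of all genes. Klf6 was higher in this way, as were 11.3% of all genes, and Fos lower, as were 16.3%. Such counts are near the background. In absolute size the members' median log2 fold was 0.41, against 0.18 over all genes tested. These sizes are not like for like, since the log2(CPM + 1) scale understates changes of low genes. Of the 10 members 7 averaged 5 CPM or more, beside 4723 of all 11342 genes. The absolute size without CT23 replicates 1 and 2 was not computed. In the authors' deposited table the p-values of the members lay between 0.0710 for Fos and 0.682 for Egr1.

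**Figure D1:**
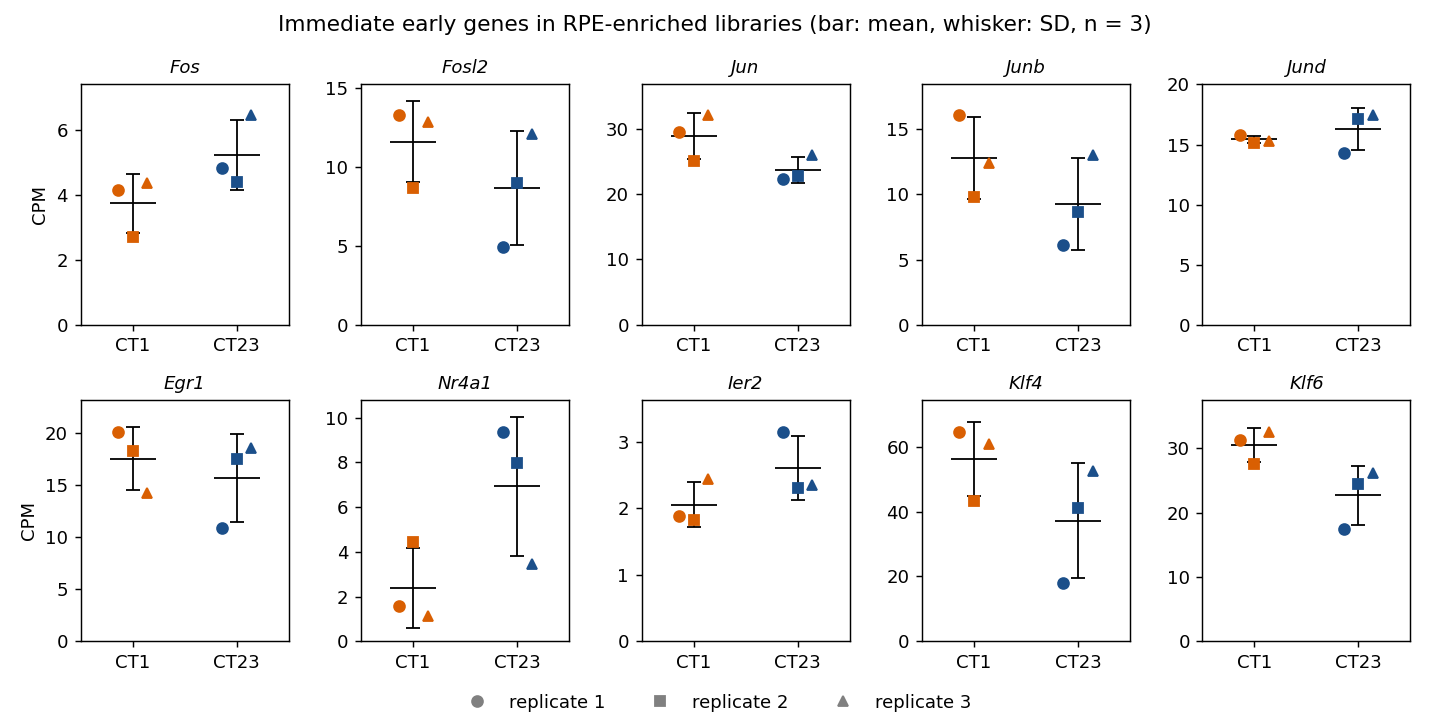
CPM of each of the 10 members (y axis, from 0) at CT1 and CT23 (x axis), with a point per library, a bar at the mean and a whisker of 1 SD (n = 3 each). Klf6 points at CT1 all lie above those at CT23, Fos points at CT1 all lie below those at CT23, and the other 8 members overlap.

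Among AP-1 members, Fos encodes the partner that AP-1 gains on stimulation. Fos was at 4.15, 2.70 and 4.37 CPM in CT1 replicates 1, 2 and 3, against 4.83, 4.38 and 6.45 CPM in CT23 replicates 1, 2 and 3. The times did not overlap, but CT1 replicate 3 (59 reads) and CT23 replicate 2 (57 reads) were almost level. The means were 3.74 ± 0.910 CPM at CT1 and 5.22 ± 1.09 CPM at CT23 (SD, n = 3 each), a log2 fold of -0.40 (SE 0.185; limma adjusted p = 0.255). The log2 fold was -0.23 without CT1 replicate 2, -0.26 without CT23 replicate 3 and -0.67 without CT23 replicates 1 and 2. Its libraries held only 34 to 88 reads.

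Fosl2 encodes Fra-2, a Fos relative that stays in AP-1 longer after a stimulus. The gene lies at chr5:32135801-32157842 on the plus strand of GRCm38. It was at 13.3, 8.64 and 12.9 CPM in CT1 replicates 1, 2 and 3, against 4.91, 8.99 and 12.1 CPM in CT23 replicates 1, 2 and 3. CT23 replicate 1 was far lowest, and the other CT23 libraries lay within or near the CT1 range. The log2 fold was 0.44 (SE 0.283; limma adjusted p = 0.402). It was 0.12 without CT23 replicate 1, 0.69 without CT23 replicate 3 and -0.077 without CT23 replicates 1 and 2.

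Jun encodes the AP-1 subunit that can pair with itself as well as with Fos proteins. Its level was 29.5, 25.1 and 32.1 CPM in CT1 replicates 1, 2 and 3, against 22.3, 22.7 and 25.9 CPM in CT23 replicates 1, 2 and 3. The times overlapped by 1 pair, with CT1 replicate 2 just below CT23 replicate 3. Means were 28.9 ± 3.54 CPM at CT1 and 23.6 ± 1.97 CPM at CT23 (SD, n = 3 each), a log2 fold of 0.27 (95% confidence interval 0.0059 to 0.54; limma adjusted p = 0.220), and 0.14 without CT23 replicates 1 and 2. Junos overlaps Jun on the other strand, and the sources used here do not state whether reads were counted by strand.

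Junb, whose product often restrains Jun, was at 16.1, 9.83 and 12.4 CPM in CT1 replicates 1, 2 and 3, against 6.08, 8.68 and 13.1 CPM in CT23 replicates 1, 2 and 3. CT23 replicate 3 lay above 2 CT1 libraries, and CT23 replicate 1 was lowest. The log2 fold was 0.46 (SE 0.256; limma adjusted p = 0.335). It was 0.22 without CT23 replicate 1, 0.71 without CT23 replicate 3 and -0.053 without CT23 replicates 1 and 2. Junb lies at chr8:84974484-84978718 on the minus strand of GRCm38, and its 3′ end overlaps that of Prdx2 on the other strand by 351 bases. Prdx2, a peroxiredoxin gene, was at 21.3 to 26.7 CPM at CT1 and 20.3 to 25.0 CPM at CT23, so reads shared between the pair could not be told apart without strand.

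Jund is the Jun family member that most cells express steadily, and it lies at chr8:70698949-70700616 on the plus strand of GRCm38. It was at 15.8, 15.1 and 15.3 CPM in CT1 replicates 1, 2 and 3, against 14.3, 17.1 and 17.5 CPM in CT23 replicates 1, 2 and 3. The CT1 libraries sat inside the CT23 range, and the log2 fold was -0.07 (95% confidence interval -0.30 to 0.17; limma adjusted p = 0.724). It was -0.16 without CT23 replicate 1, -0.033 without CT23 replicate 2 and -0.020 without CT23 replicate 3. An antisense gene, Gm11175, overlaps Jund.

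**Figure D2:**
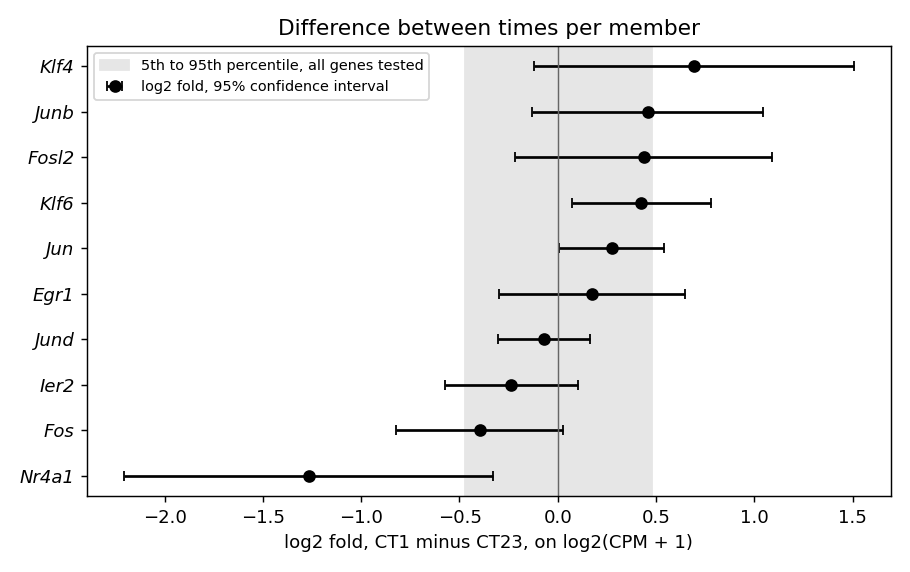
Log2 fold per member, CT1 minus CT23 on the log2(CPM + 1) scale (x axis), with the 95% confidence interval from limma and, in grey, the range between the 5th and 95th percentiles of all 11342 genes tested. Nr4a1 lies farthest from 0 at -1.27, and the intervals of Nr4a1, Jun and Klf6 do not reach 0 before adjustment.

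Nr4a1, which encodes the orphan receptor Nur77, had the widest difference among the members. It was at 1.59, 4.44 and 1.11 CPM in CT1 replicates 1, 2 and 3, against 9.38, 7.99 and 3.45 CPM in CT23 replicates 1, 2 and 3. CT1 replicate 2 exceeded CT23 replicate 3, so the times overlapped by that pair. Nr4a1 had only 15 to 56 reads a library at CT1 and 47 to 128 at CT23. Counting error gives a coefficient of variation of 18.1% at CT1 and 10.4% at CT23, against 75.7% and 44.7% between the libraries. The means were 2.38 ± 1.80 CPM at CT1 and 6.94 ± 3.10 CPM at CT23 (SD, n = 3 each), a log2 fold of -1.27 (SE 0.408; limma adjusted p = 0.140). Leaving out single libraries, the log2 fold ran from -1.67 to -0.99 and the limma adjusted p from 0.102 to 0.312. Without CT23 replicates 1 and 2 the log2 fold was -0.52, outside that range. When library totals were counted without crystallin reads Nr4a1 passed, with a log2 fold of -1.45 (limma adjusted p = 0.0498), and relative to the median of all genes under that scaling the log2 fold was -1.28. Its paralog Nr4a2 had a log2 fold of 0.13 (limma adjusted p = 0.666), and the difference between the paralogs was not tested.

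Egr1, a zinc finger factor induced by growth factors, light and synaptic activity in neural tissue, was at 20.1, 18.2 and 14.2 CPM in CT1 replicates 1, 2 and 3, against 10.8, 17.5 and 18.6 CPM in CT23 replicates 1, 2 and 3. The times overlapped, with the lowest value again in CT23 replicate 1. Its log2 fold of 0.18 (95% confidence interval -0.30 to 0.65; limma adjusted p = 0.649) turned to -0.053 without that library, and to -0.0070 with totals counted without crystallin reads. Ier2, which encodes a small nuclear protein (chr8:84661331-84662852, minus strand, GRCm38), was at 1.89, 1.82 and 2.44 CPM in CT1 replicates 1, 2 and 3, against 3.15, 2.30 and 2.35 CPM in CT23 replicates 1, 2 and 3. CT1 replicate 3 lay above 2 CT23 libraries, and the log2 fold was -0.24 (SE 0.147; limma adjusted p = 0.382), or -0.13 without CT23 replicate 1. Ier2 had only 23 to 43 reads a library, and its spread within a time, a coefficient of variation of 16.6% at CT1 and 18.3% at CT23, was close to the 19.2% and 16.9% that counting error alone gives.

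Both Krüppel-like members, Klf6 and Klf4, averaged higher at CT1. Klf6, a ubiquitous zinc finger factor, was at 31.3, 27.5 and 32.6 CPM in CT1 replicates 1, 2 and 3, against 17.5, 24.5 and 26.1 CPM in CT23 replicates 1, 2 and 3. Every CT1 library exceeded every CT23 library, by the least between CT1 replicate 2 and CT23 replicate 3. The means were 30.5 ± 2.64 CPM at CT1 and 22.7 ± 4.57 CPM at CT23 (SD, n = 3 each), a log2 fold of 0.43 (SE 0.153; limma adjusted p = 0.171). The log2 fold was 0.26 without CT23 replicate 1 and 0.21 without CT23 replicates 1 and 2.

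Klf4, a factor of barrier epithelia and one of the reprogramming factors, was at 64.7, 43.2 and 60.8 CPM in CT1 replicates 1, 2 and 3, against 17.9, 41.2 and 52.6 CPM in CT23 replicates 1, 2 and 3. CT23 replicate 1 was far lowest, and CT23 replicate 3 lay above CT1 replicate 2. The log2 fold was 0.69 (95% confidence interval -0.12 to 1.51; limma adjusted p = 0.295), 0.25 without CT23 replicate 1 and 0.075 without CT23 replicates 1 and 2. Counting error was small for this gene, since at CT23 it gives a coefficient of variation of 4.48%, against 47.5% between the libraries.

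Several members put the libraries in a common order. CT23 replicate 1 was the lowest library for 7 of the 10 members, Fosl2, Jun, Junb, Jund, Egr1, Klf4 and Klf6, and the highest for Nr4a1 and Ier2. The share of all genes lowest in that library was not computed, so this count cannot be set apart from a trait of the library. Over the 6 libraries Klf4 and Fosl2 had a Pearson r of 0.99, Klf4 and Klf6 one of 0.97, and Fosl2 and Junb one of 0.96, all on log2(CPM + 1). Nr4a1 ran in the exact reverse of Jun (r = -0.99). Fos stood outside this order, with r between -0.24 and 0.56 to the other members. Jund was also loosely tied to the others, with r between -0.30 and 0.67, and -0.01 to Jun. These r values are descriptions, and the 6 libraries behind them differ in tissue makeup, as given below.

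The sum of 6 keratins of the ocular surface epithelium, which lies at the front of the eye, ordered the libraries in a similar way. The summed level of 6 keratin genes was 1713, 1050 and 1573 CPM in CT1 replicates 1, 2 and 3, against 613, 905 and 1306 CPM in CT23 replicates 1, 2 and 3. All 6 keratins were detected and all 6 averaged higher at CT1. The keratin sum ranked the 6 libraries exactly as Klf4 did, within each time as well as across both. Single keratins did not all keep this order. Krt12 was at 393 CPM in CT23 replicate 3, above the 389 CPM of CT1 replicate 3. Krt4 was lowest in CT23 replicate 2, at 66.9 CPM, against 82.6 CPM in CT23 replicate 1. Klf5, another factor of surface epithelia, was at 91.9, 54.5 and 83.3 CPM in CT1 replicates 1, 2 and 3, against 37.9, 40.8 and 64.2 CPM in CT23 replicates 1, 2 and 3. The part of surface epithelium in the results for Klf4, Klf6, Fosl2, Junb and Jun was not tested.

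**Figure D3:**
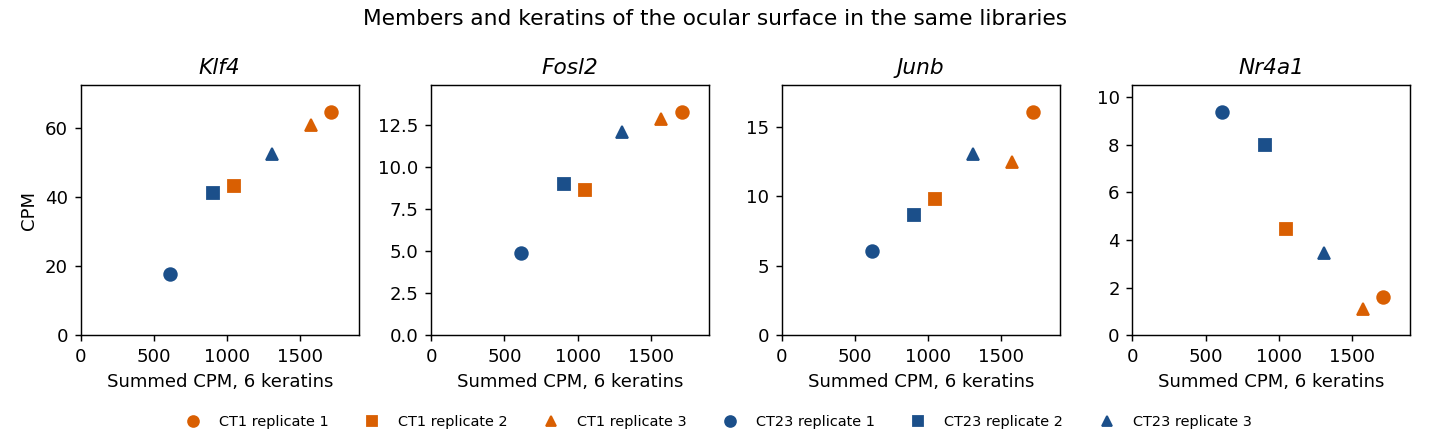
CPM of Klf4, Fosl2, Junb and Nr4a1 (y axes, from 0) against the summed CPM of 6 keratins (x axis, from 0) in the 3 CT1 and 3 CT23 libraries. Klf4 and the keratin sum are both highest in CT1 replicate 1 and lowest in CT23 replicate 1, and Nr4a1 is highest where the sum is lowest.

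Markers of other cell types were summed in the same libraries. The 14 rod markers summed to 768 to 825 CPM at CT1 and 1125 to 1362 CPM at CT23, and all 14 averaged lower at CT1. The 13 lens markers in the table summed to 1768 to 11652 CPM at CT1 and 17924 to 141062 CPM at CT23, and 13 averaged lower at CT1. The fibroblast sum was 917 to 1717 CPM at CT1 and 700 to 830 CPM at CT23, and the macrophage sum 63.2 to 91.7 CPM at CT1 and 49.5 to 62.6 CPM at CT23. Lyz2 led the macrophage sum, at 38.7, 43.4 and 51.0 CPM in CT1 replicates 1, 2 and 3. It was at 23.2, 37.6 and 30.9 CPM in CT23 replicates 1, 2 and 3. Of 9 macrophage markers tested, 8 averaged higher at CT1, 4 of them without overlap, and 1, Adgre1, averaged lower (log2 fold -0.39). Endothelial markers summed to 49.3 to 63.7 CPM at CT1 and 45.2 to 54.5 CPM at CT23, Müller glia markers to 619 to 693 CPM at CT1 and 716 to 858 CPM at CT23, and skeletal muscle markers to 39.6 to 163 CPM at CT1 and 8.80 to 36.8 CPM at CT23. Sums overlapped between the times for endothelium, for pericytes and smooth muscle (156 to 203 CPM at CT1 and 144 to 184 CPM at CT23) and for melanocytes and Schwann lineage (148 to 177 CPM at CT1 and 123 to 154 CPM at CT23). Fos, Jun, Egr1, Nr4a1 and the KLF genes are expressed in many of these cells, and the part of each cell type in their values was not tested.

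The genes most like 3 of the members were looked up among genes averaging 5 CPM or more, by Pearson r of log2(CPM + 1) over the 6 libraries. Fos was matched most closely by Rapgef5 (r = 0.98), Thrap3 (0.97) and Ahdc1 (0.97). Jun was matched by Nbeal2 (r above 0.99), Zfp467 (0.99) and Ppp1ca (0.99), and Nr4a1 by Lman1, Agfg1 and Pfdn2 (each r above 0.99). An r over 0.95 was reached by 13 of 4722 genes for Fos, 84 of 4721 for Jun and 124 of 4722 for Nr4a1.

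Related genes were read from the same limma fit, in 5 lists chosen with earlier results known, and none of their 74 members tested passed at an adjusted p of 0.05 (0% of all genes did). Among other partners of AP-1, 6 of 12 were tested, 4 averaging higher and 2 lower, with a median log2 fold of 0.04. Fosb, the closest relative of Fos, was at 4.23, 1.90 and 2.52 CPM in CT1 replicates 1, 2 and 3, against 2.42, 0.615 and 1.61 CPM in CT23 replicates 1, 2 and 3, opposite in direction to Fos but overlapping (log2 fold 0.63; limma adjusted p = 0.270). Jdp2, a repressor that pairs with Jun, had a log2 fold of 0.21. Mafg, a small Maf protein, and Atf2, a partner of Jun at cAMP-type sites, were at -0.39 and -0.34.

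Of 15 other immediate early transcription factors, 7 were tested, 5 averaging higher and 2 lower (median log2 fold 0.22). Klf5 and the Ets factor Ets2, with log2 folds of 0.68 and 0.56, had the smallest p among those higher (limma adjusted p = 0.172 and 0.171). Cebpd and Klf10, at -0.17 and -0.09, were the lower ones. Ets2 was at 11.9, 9.12 and 11.6 CPM in CT1 replicates 1, 2 and 3, against 4.91, 7.68 and 9.09 CPM in CT23 replicates 1, 2 and 3. The times did not overlap, and CT1 replicate 2 was just above CT23 replicate 3.

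Among immediate early effectors, which are not transcription factors for the most part and include phosphatases and RNA-decay proteins, 28 of 34 were tested, 12 averaging higher and 16 lower (median log2 fold -0.05). Per1, a clock repressor with cAMP response elements in its promoter, was at 0.906, 1.03 and 0.963 CPM in CT1 replicates 1, 2 and 3, against 1.83, 2.00 and 1.76 CPM in CT23 replicates 1, 2 and 3 (log2 fold -0.54; limma adjusted p = 0.0740). Zfp36, whose product speeds the decay of short-lived mRNAs, was at 2.79, 3.41 and 2.81 CPM in CT1 replicates 1, 2 and 3, against 5.05, 4.46 and 3.89 CPM in CT23 replicates 1, 2 and 3 (log2 fold -0.45; limma adjusted p = 0.121). Both averaged lower at CT1, as Fos and Nr4a1 did, and neither passed. Genes near 1 CPM, here and among the kinases below, rest on few reads a library, since 1 read was worth 0.0733 to 0.0793 CPM. Sik1, a kinase induced by CREB that damps CREB's coactivators, was higher in every CT1 library, at 1.27 to 1.74 CPM against 0.293 to 0.953 CPM at CT23 (log2 fold 0.57; limma adjusted p = 0.134). Gadd45g, a stress gene, was likewise at 1.28 to 2.22 CPM at CT1 against 0.513 to 0.806 CPM at CT23 (log2 fold 0.61; limma adjusted p = 0.110).

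**Figure D4:**
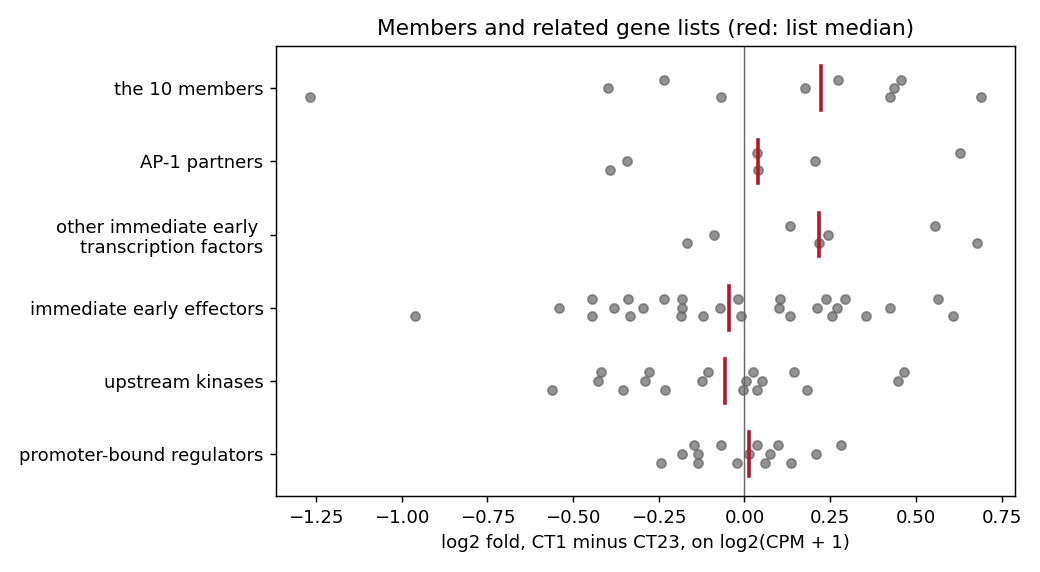
Log2 fold of each tested gene, CT1 minus CT23 on the log2(CPM + 1) scale (x axis), for the 10 members and 5 related lists (rows), with the list median in red. The points of every list lie on both sides of 0, and Nr4a1 at -1.27 is the farthest of the members.

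Upstream of these genes, 18 of 19 kinases were tested, 8 averaging higher and 10 lower (median log2 fold -0.06). The RSK kinases, which phosphorylate CREB and the serum response factor, differed in direction. Rps6ka2 was at 0.831, 0.872 and 0.666 CPM in CT1 replicates 1, 2 and 3, against 1.68, 1.61 and 1.61 CPM in CT23 replicates 1, 2 and 3 (log2 fold -0.56; limma adjusted p = 0.0736). Rps6ka3 was higher in each CT1 library, at 6.66 to 8.15 CPM against 4.76 to 5.87 CPM at CT23 (log2 fold 0.46; limma adjusted p = 0.102), and Rps6ka1 had a log2 fold of 0.45. Camk2d, a calcium-dependent kinase, was at 12.1 to 13.9 CPM at CT1 against 16.2 to 19.9 CPM at CT23 (log2 fold -0.42). Of 19 regulators that sit at immediate early promoters, 15 were tested, 8 averaging higher and 7 lower (median log2 fold 0.01). Creb1 itself was at 16.4 to 17.1 CPM at CT1 against 17.6 to 19.1 CPM at CT23 (log2 fold -0.13), and the coactivator Ep300 was at a log2 fold of -0.24. Mkl1, a coactivator of the serum response factor, and Mef2c, a calcium-responsive factor, were at 0.28 and 0.21.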

How the data were processed

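RNA of 6 pooled RPE libraries was measured with the QuantSeq 3′ kit, per the labels' protocols. The deposited values are CPM, per the file headers, with a log2 fold and a p-value per gene from the authors. Per the submitters' processing notes, mm10, Bowtie2 2.1.0, HTSeq and edgeR 3.24.1 were used, with no role given. Whole reads were recovered from 100% of the CPM values, within 0.01 of a read; DESeq2 1.42.0 and edgeR 4.0.16 were run on them. The 75 entries without a gene name, at most 0.102% of listed reads, were left out. Limma 3.58.1 with a mean-variance trend was fitted to log2(CPM + 1) over 11342 genes averaging 1 CPM or more, CT1 minus CT23, two-sided, with Benjamini-Hochberg adjustment, and was tested on simulated data. The log2 scale understates changes of low genes, and counting error does not cover PCR duplicates. The members and lists were chosen with earlier results of these data known. Of each list, the text names the 2 genes with the smallest p in each direction. Nr4a2, Prdx2, Dusp1, Hspa1b, Hspa1a and Hsp90aa1 are named besides, after their values were seen. In lists, genes not in the table were not analysed here, among them Srf, Egr2 and Myc. Alternatives were other pseudocounts, filters, scalings and tools, the replicate number as a block, and libraries left out. Library pairs differed beyond sampling noise (chi-square per gene 5.88 to 235). Promoter windows were from RefSeq and gene positions from GENCODE M21, both GRCm38.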

Additional observations from a re-analysis of the deposited data

How the results depend on the processing

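Over 16 alternatives, the members kept their direction and stayed above an adjusted p of 0.05 in 150 of 157 member values; DESeq2 gave Ier2 no adjusted p. With totals counted without crystallin reads, limma called 360 genes (7 higher, 353 lower at CT1), of which 1 was a member, Nr4a1, and 2 were in the related lists, Per1 and Rps6ka2; there the median log2 fold of all genes was -0.17. With a mean of at least 5 CPM limma called 98 genes (15 higher, 83 lower), and 7 members were tested. DESeq2 called 133 genes and gave no adjusted p to 5717, and edgeR's quasi-likelihood test called 0 genes; both called 0 members. Leaving out single libraries, the count of genes was 0 to 4, the highest without CT23 replicate 3, and the count of members was 0. Without CT23 replicates 1 and 2 the members' median log2 fold was -0.085, against 0.22 with them, and Egr1, Fosl2 and Junb changed sign, to -0.092, -0.077 and -0.053; limma then assumes that the lone CT23 library varies like the others. Leaving out single libraries, Egr1 ranged from -0.053, without CT23 replicate 1, to 0.31, and it was at -0.0070 without crystallin reads. These 5 sign changes and the gain of Nr4a1 are the other exceptions, and the cause was not tested. The labels state no pairing by replicate number, and none was seen. Deviations of same-numbered libraries from the means of their times had correlations of -0.25, 0.38 and -0.04. CT1 replicate 1 was closest to CT23 replicate 3 (0.77). These deviations also carry differences in tissue makeup, so they cannot decide whether same-numbered libraries were handled together. With the replicate number as a block 0 members and 0 genes were called, with an adjusted p of 0.105 for Nr4a1. Depth limits Ier2, which had 23 to 43 reads a library and a spread close to counting error.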

Other observations

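The summed level of heat shock genes, which respond to handling as immediate early genes do, overlapped between the times. Their summed level over 7 genes was 65.9, 57.8 and 67.9 CPM in CT1 replicates 1, 2 and 3, against 49.6, 61.5 and 66.3 CPM in CT23 replicates 1, 2 and 3. CT23 replicate 1 was lowest here as it was for 7 of the members, and how many of all genes were lowest there was not computed. Hspa1b, an inducible chaperone gene, was at 16.2, 12.7 and 19.0 CPM in CT1 replicates 1, 2 and 3, against 7.98, 14.6 and 16.3 CPM in CT23 replicates 1, 2 and 3 (log2 fold 0.32; limma adjusted p = 0.479). Of the 7 heat shock genes, Hspa1a was higher in every CT1 library, at 5.79 to 6.72 CPM against 3.81 to 5.57 CPM at CT23 (limma adjusted p = 0.233). Hsp90aa1 was lower in every CT1 library, at 5.82 to 6.74 CPM against 7.19 to 8.37 CPM at CT23 (limma adjusted p = 0.204). Of all genes, 11.3% were higher and 16.3% lower in this way. Dusp1, a phosphatase that ends kinase signalling and is among the fastest immediate early genes, had a log2 fold of -0.18 (limma adjusted p = 0.657), with its values overlapping between the times.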
